A study of Mus musculus with 6 samples.

Results

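The Th1 programme is described here through 7 genes of the 16244 in the deposited table of normalized reads, chosen by gene symbol: the transcription factors Tbx21, Eomes and Hlx, the cytokine gene Ifng, and the receptor chains Il12rb2, Il18r1 and Il18rap. The samples were Th17 cells grown in vitro from naive CD4+ T cells of mouse spleen, with 3 RNA-seq libraries from WT C57BL/6 mice and 3 from RORγt-N275D knock-in mice of the same background. The knock-in changes 1 amino acid, an asparagine to an aspartate, in the ligand-binding domain of RORγt, the factor that defines Th17 cells, and every cell of the mouse carries it. The zygosity of the mice behind these libraries, and whether the 3 libraries of a genotype came from separate mice or cultures, were not given in the sources used here, so p-values measure only the spread between these libraries, which may be technical. The methods give 1 age range, of young adult mice, for experiments where no other age is noted, and note no other age for the RNA-seq. The WT mice were bought while the knock-in line came from another laboratory. The C57BL/6 substrain of the knock-in line was not given in the sources used here, so whether it matched the WT substrain is not known. Both genotypes were cultured for 3 days under conditions for pathogenic Th17 cells. The series description names IL-6, IL-1β and IL-23, while the methods list TGF-β and neutralising antibodies against IL-4 and IFN-γ as well. Which mix these 6 cultures received is not settled by these sources, and it bears on Th1 genes because IFN-γ acts on the cells that make it.

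In N275D cells the Th1 genes moved in both directions. Il12rb2, the signalling chain of the IL-12 receptor, was 2.40-fold higher than in WT, Ifng was 1.75-fold higher and Eomes 1.62-fold higher. Tbx21, which encodes T-bet, was lower, with WT at 1.78 times the N275D level, and both chains of the IL-18 receptor were slightly lower, although Il18rap was called in only 8 of the 14 alternative settings. Hlx did not pass the test. Calls were made with limma on log2(normalized reads + 1) at a Benjamini-Hochberg adjusted p under 0.05, over the 11908 genes averaging 10 or more normalized reads across the 6 libraries, and all 7 genes passed that filter. Of the 7, 3 were called higher, against 24.7% of all genes tested, and 3 were called lower, against 26.1%. Called either way were 6 of 7, against 50.9% of all genes, and of the 6056 genes called in all, 427 changed 2-fold or more. At a 2-fold change or more only Il12rb2 was called, 1 of 7 against 3.59% of all genes, or 2.73% for rises and 0.857% for falls. The genotypes did not overlap for 6 of the 7, against 57.7% of all genes tested. The median log2 fold change was -0.03 over the 7 genes and -0.0026 over all genes tested.

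Th1 cells are the CD4+ T cells that make IFN-γ and act against intracellular microbes. T-bet is their defining factor: it opens and activates Ifng and raises Il12rb2, which lets the cells respond to IL-12 through STAT4, and IL-18 then adds to the IFN-γ response. T-bet and the related factor Eomes share target genes, and Hlx is a homeobox factor that acts with T-bet. Th17 cells that also make IFN-γ are known from inflamed tissue, and IL-23 and IL-1β favour them in culture.

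The libraries held 17659035 to 18510878 reads on genes, and the 10 most abundant genes took 5.65% to 6.14% of the normalized total. Log2 values correlated at r = 0.994 to 0.996 within WT, 0.996 within N275D and 0.983 between genotypes. The median squared difference between pairs of WT libraries that included WT replicate 3 was 3.24 and 3.32 times that of counting error alone. For the other pairs within a genotype, this squared difference was 1.34 to 1.57 times that of counting error. Without WT replicate 3, the 6 called Th1 genes were called in the same direction.

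**Figure D1:**
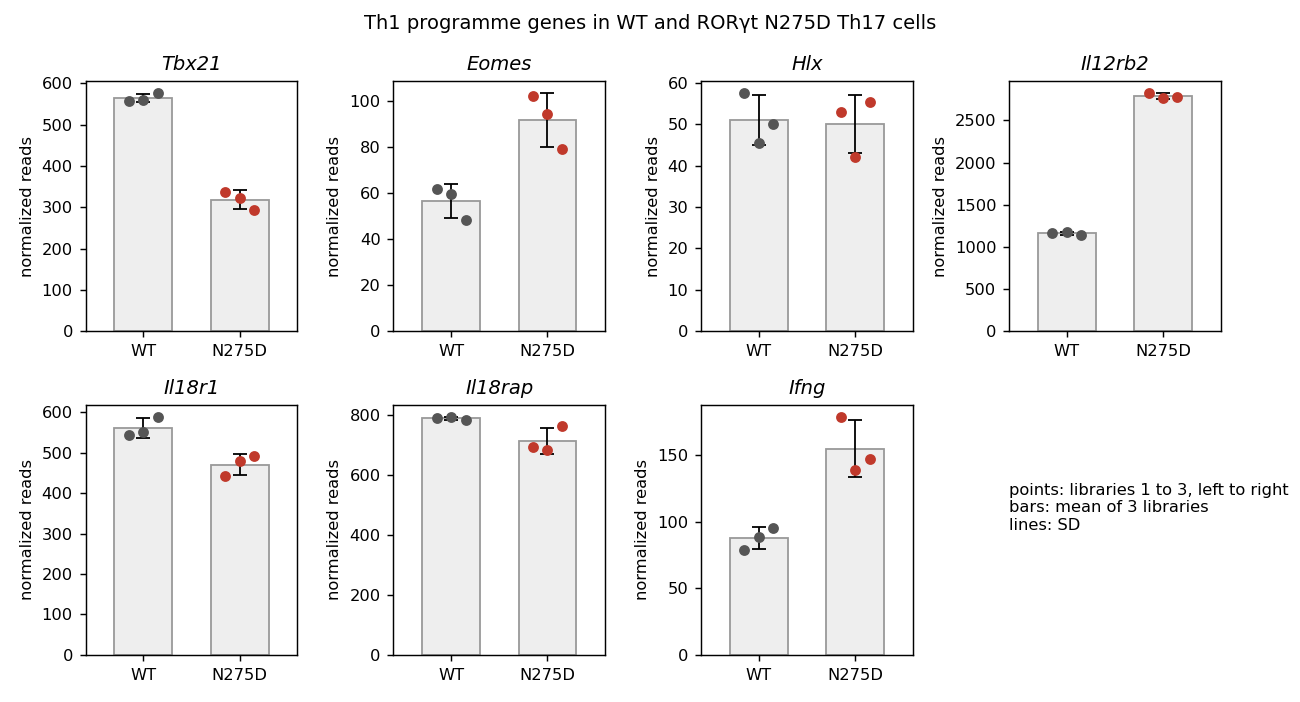
Normalized reads of each of the 7 Th1 programme genes (vertical axis, starting at 0, one panel per gene) in the 3 WT and 3 N275D libraries, with points for libraries and bars for mean and SD. WT and N275D points are apart in every panel except Hlx, where they overlap.

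Sequence upstream of the start site is shown for the member that fell most, Tbx21, and for the 2 that rose most, Il12rb2 and Ifng. The sequences are from RefSeq on GRCm38.p6, read 5′ to 3′ on the gene's strand and ending at the base before the outermost annotated start, and they cover chr11:97115332-97115581 (minus strand), chr10:118440796-118441045 (plus strand) and chr6:67376294-67376438 (minus strand). Capitals mark matches, on either strand, to 5 letter patterns: AGGTCA (the core that ROR factors read), ACGTG and GCGTG (forms of the HIF core), TTCNNNGAA (a STAT site) and AGGTGTNA (a T-box site). ACGTG can match both strands of one CACGTG and then counts as 2 matches.
Tbx21: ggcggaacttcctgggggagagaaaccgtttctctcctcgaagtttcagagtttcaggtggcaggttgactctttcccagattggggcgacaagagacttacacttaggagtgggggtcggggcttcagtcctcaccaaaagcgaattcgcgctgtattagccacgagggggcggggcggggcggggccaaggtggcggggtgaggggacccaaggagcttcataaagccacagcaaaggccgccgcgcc
Ifng: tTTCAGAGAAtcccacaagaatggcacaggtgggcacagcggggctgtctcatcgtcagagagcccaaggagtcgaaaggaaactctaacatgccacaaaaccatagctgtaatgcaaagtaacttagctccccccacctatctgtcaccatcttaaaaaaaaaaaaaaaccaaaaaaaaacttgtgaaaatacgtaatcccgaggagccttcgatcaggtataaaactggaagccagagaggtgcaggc
Il12rb2: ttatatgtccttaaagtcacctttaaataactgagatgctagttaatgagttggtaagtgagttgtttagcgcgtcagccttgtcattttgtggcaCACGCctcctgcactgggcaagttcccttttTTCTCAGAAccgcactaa

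The full windows searched ran from 250 bases before to 50 bases after each start, 9 windows for the 7 genes, and all 7 genes were found in the promoter table. The Il12rb2 window held GCGTG 4 times, at 154, 104, 77 and 20 bases before the start, and 1.33% of the 32851 promoters held it at least 4 times. It also held 1 STAT match, 123 bases before the start. Another RefSeq transcript of Il12rb2 starts further upstream, so the printed stretch ends earlier and shows 2 of these 5 matches. The Ifng window held a STAT match 249 bases before the start and AGGTCA 16 bases after it. The Tbx21 window held none of the 5 patterns. Among all promoters, 16.3% held AGGTCA, 19.6% ACGTG, 32.4% GCGTG, 8.3% TTCNNNGAA and 3.03% AGGTGTNA. Of the 9 member windows, 1 held AGGTCA, 2 held GCGTG and 3 held TTCNNNGAA, and neither ACGTG nor AGGTGTNA was found. A letter match is a description of the sequence and does not show binding.

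The 3 transcription factors each behaved differently. Tbx21 (chromosome 11, 97098007 to 97115331, minus strand) stood at 558, 559.8 and 577 normalized reads in the WT libraries and 337, 323 and 292 in the N275D libraries. All N275D libraries were below all WT libraries. The means were 565 ± 10.2 and 318 ± 23.0 (SD, n = 3 libraries each), a log2 fold change of -0.83 (SE 0.07, 95% confidence interval -0.97 to -0.69, adjusted p = 5.19e-08) in limma.

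Eomes (chromosome 9, 118478186 to 118486132, plus strand), the T-box factor best known from CD8 T and NK cells, was at 61.6, 59.5 and 48.1 normalized reads in WT and 102, 94.3 and 79.0 in N275D. The genotypes did not overlap and N275D was the higher. The means were 56.4 ± 7.24 and 91.7 ± 11.6, with a log2 fold change of 0.69 (SE 0.14, 95% confidence interval 0.39 to 1.00, adjusted p = 0.000803) in limma. The SD between libraries was close to the 7.51 and 9.58 normalized reads that counting error alone gives at this depth. For the same T-box family, therefore, Tbx21 was lower and Eomes higher in the same libraries: per 100 Tbx21 reads there were 11.0, 10.6 and 8.35 Eomes reads in WT and 30.2, 29.2 and 27.0 in N275D.

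Hlx (chromosome 1, 184727143 to 184732493, minus strand) was at 57.5, 45.4 and 50.1 normalized reads in WT and 52.9, 42.1 and 55.3 in N275D. The 2 sets of values overlapped. The log2 fold change was -0.03 (SE 0.16, 95% confidence interval -0.37 to 0.32, adjusted p = 0.900) in limma, and the interval leaves room for a difference of either sign.

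Ifng (chromosome 10, 118441046 to 118445894, plus strand) encodes IFN-γ, the cytokine that defines Th1 cells. It was at 78.7, 88.8 and 95.3 normalized reads in WT and 179, 138 and 147 in N275D. The lowest N275D library was above the highest WT library. The means were 87.6 ± 8.34 and 155 ± 21.2, with a log2 fold change of 0.81 (SE 0.12, 95% confidence interval 0.56 to 1.06, adjusted p = 3.54e-05) in limma. Ifng rose while Tbx21 fell, so the balance between them shifted: WT had 14.1, 15.9 and 16.5 Ifng reads per 100 Tbx21 reads, and N275D had 53.0, 42.9 and 50.3. The means of that ratio were 15.5 ± 1.25 and 48.7 ± 5.24, given without a test. In bulk RNA, more IFN-γ-making cells and more Ifng RNA per cell cannot be told apart, and the same holds for each gene here.

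**Figure D2:**
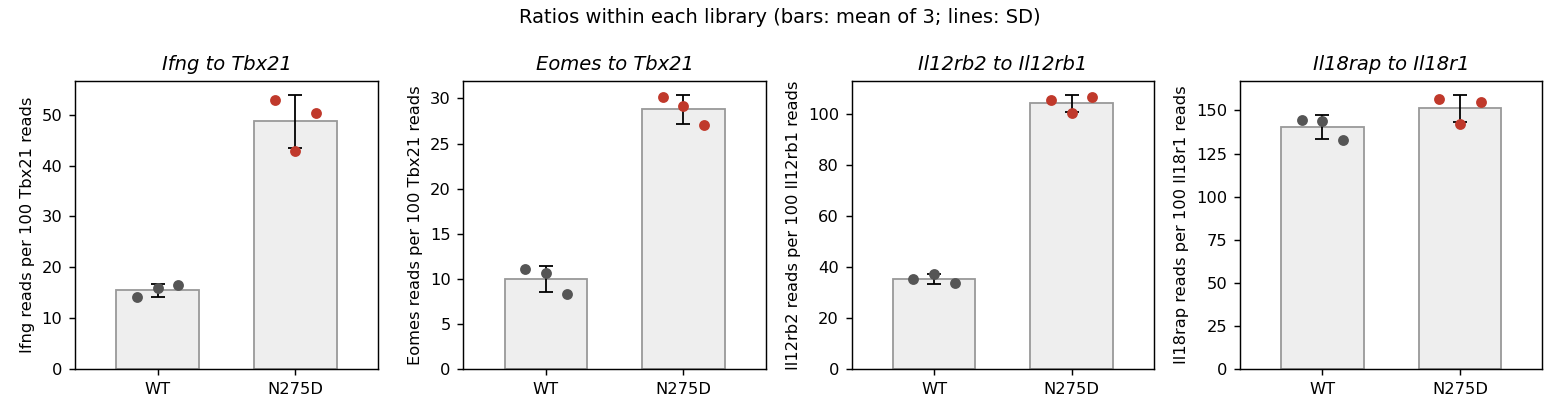
Ratio of normalized reads of 2 genes within each library (vertical axis, reads of the first gene per 100 reads of the second, starting at 0), with points for the 3 WT and 3 N275D libraries and bars for mean and SD. Ifng and Eomes per Tbx21, and Il12rb2 per Il12rb1, are higher in every N275D library than in any WT library, while Il18rap per Il18r1 overlaps.

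Il12rb2 (chromosome 6, 67285986 to 67376293, minus strand) is the chain of the IL-12 receptor that recruits STAT4, and it is the one that T cells switch on when they become responsive to IL-12. It was at 1159.7, 1180.2 and 1146 normalized reads in WT and 2825, 2765 and 2780.0 in N275D. The values within a genotype lay close together and the genotypes were far apart. The means were 1162 ± 17.1 and 2790.0 ± 31.4, with a log2 fold change of 1.26 (SE 0.04, 95% confidence interval 1.18 to 1.35, adjusted p = 9.25e-13) in limma. It ranked 12 among the 11908 genes by p and 169 by size of rise. Il12rb1, the chain shared by the receptors for IL-12 and IL-23, moved the other way, with 3302 ± 119 in WT and 2681 ± 74.8 in N275D (log2 fold change -0.30, adjusted p = 1.67e-05). Per 100 Il12rb1 reads there were 35.2, 37.0 and 33.5 Il12rb2 reads in WT and 105, 100.3 and 107 in N275D.

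In RefSeq the Il12rb2 locus overlaps the end of Serbp1, a highly expressed gene on the other strand, by 3317 bases. In GENCODE M21 Il12rb2, on the minus strand, ends at 67291318, outside that overlap. The strand setting of the authors' counting was not given in the sources used here. Serbp1 was lower in N275D, with 18611 ± 259.7 in WT and 16198 ± 398 in N275D (log2 fold change -0.20, adjusted p = 8.97e-05). Whether reads from Serbp1 were counted for Il12rb2 was not tested. On the other side, 46638 bases away, lies Il23r, the IL-23 receptor chain that pairs with Il12rb1, and it was higher, with 385 ± 12.5 in WT and 629 ± 50.3 in N275D (log2 fold change 0.70, adjusted p = 3.25e-07).

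Il18r1 (chromosome 1, 40465552 to 40500854, plus strand) and Il18rap (chromosome 1, 40515362 to 40551707, plus strand) encode the ligand-binding and the accessory chain of the IL-18 receptor and lie 14507 bases apart. Il18r1 was at 544, 551 and 589 normalized reads in WT and 442, 479 and 491 in N275D, without overlap. Its means were 561 ± 24.5 and 471 ± 25.3, with a log2 fold change of -0.25 (SE 0.06, 95% confidence interval -0.39 to -0.12, adjusted p = 0.00300) in limma, a small drop in which WT was 1.19 times N275D.

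Il18rap was at 787, 793 and 782 normalized reads in WT and 693, 681 and 760.4 in N275D. The libraries did not overlap, but the highest N275D value was close to the lowest WT value. Its means were 787 ± 5.49 and 711 ± 42.8, with a log2 fold change of -0.15 (SE 0.06, 95% confidence interval -0.27 to -0.03, adjusted p = 0.0354) in limma. That call was not stable: leaving out WT replicate 1 or 2 or N275D replicate 1 or 2 gave adjusted p = 0.0745, 0.0780, 0.125 and 0.158 in limma, in that order. The proportion of the 2 chains overlapped between the genotypes, with 140.4 ± 6.75 Il18rap reads per 100 Il18r1 reads in WT and 151 ± 7.81 in N275D.

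**Figure D3:**
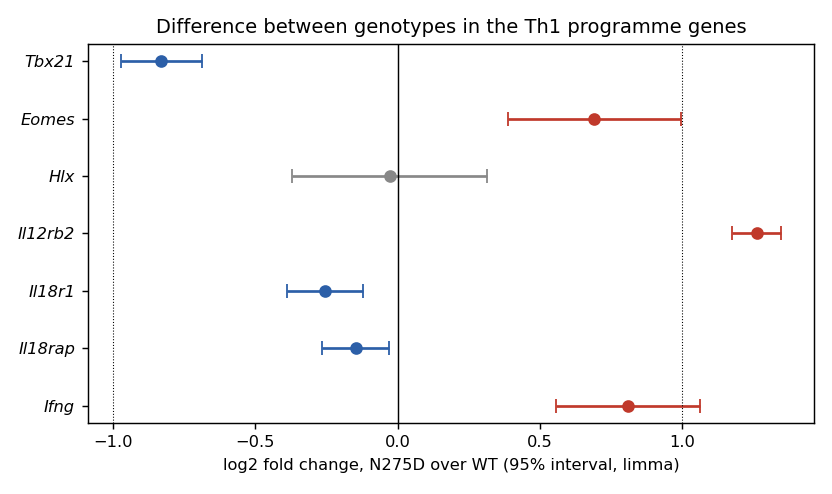
Log2 fold change of N275D against WT (horizontal axis) for the 7 Th1 programme genes, with 95% confidence intervals from limma. Il12rb2, Ifng and Eomes lie above 0, Tbx21, Il18r1 and Il18rap below 0, and the interval of Hlx spans 0.

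The IL-18 receptor genes sit in a cluster on chromosome 1 with other IL-1 receptor family genes, and all 6 receptor genes listed from it were tested, while the sodium/proton exchanger genes Slc9a4 and Slc9a2 beside them were below the filter. Of the 6 tested, 1 was called higher and 4 lower, against 24.7% and 26.1% of all genes tested. Il1r2, the decoy receptor for IL-1, was the 1 called higher, with 202 ± 22.7 in WT and 326 ± 10.8 in N275D (log2 fold change 0.70, adjusted p = 5.97e-06). Lower were 4, Il18r1, Il18rap, Il1rl2 and Il1rl1, the last encoding the IL-33 receptor chain ST2, with 47.7 ± 6.91 in WT and 33.9 ± 2.80 in N275D (log2 fold change -0.48, adjusted p = 0.0299). Il1r1, the signalling IL-1 receptor, was not called, with 1550.0 ± 105 in WT and 1452 ± 48.3 in N275D (log2 fold change -0.09, adjusted p = 0.153).

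Levels were compared between genes only per kilobase of exon, using the union of GENCODE M21 exons. For Il12rb2, on the minus strand, the GENCODE M21 locus ends at 67291318 and the RefSeq locus at 67285986. The exon lengths behind the authors' counting were not given in the sources used here. A longer length would lower the level of Il12rb2 per kilobase, and the order was not checked with it. In WT the order was Il12rb2 at 306 ± 4.50 normalized reads per kilobase, Tbx21 at 227 ± 4.10, Il18rap at 117 ± 0.813, Il18r1 at 117 ± 5.08, Ifng at 67.6 ± 6.44, Hlx at 22.4 ± 2.69 and Eomes at 13.6 ± 1.74. The 2 IL-18 receptor chains did not differ beyond their spread. In N275D, Il12rb2 at 735 ± 8.28 was again first, followed by Tbx21 at 128 ± 9.26, Ifng at 119.5 ± 16.4, Il18rap at 105 ± 6.34, Il18r1 at 97.7 ± 5.24, Eomes at 22.1 ± 2.80 and Hlx at 22.0 ± 3.08. There, each neighbouring pair from Tbx21 to Il18r1 overlapped between libraries, as did Eomes and Hlx.

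**Figure D4:**
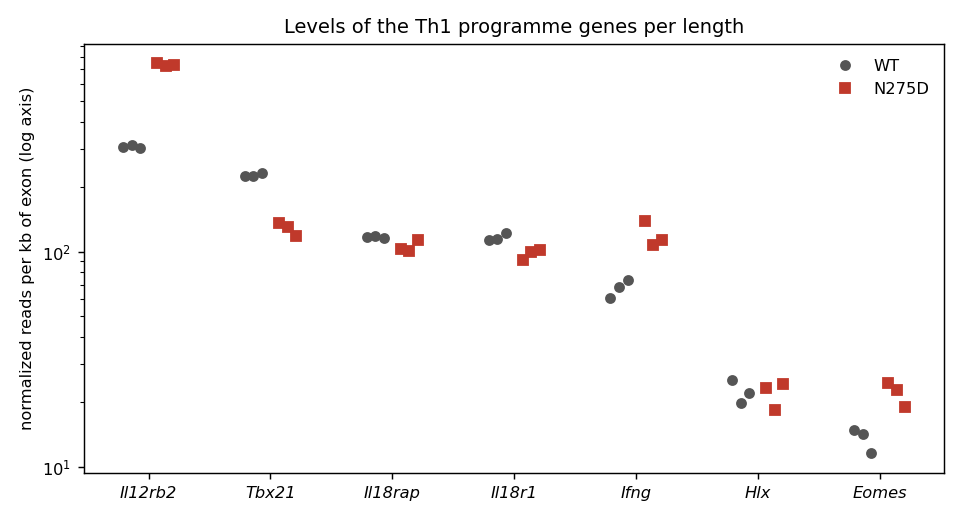
Normalized reads per kilobase of exon (log axis) for the 7 Th1 programme genes in the WT and N275D libraries, with points for libraries. With GENCODE M21 exon lengths, Il12rb2 is the highest gene in both genotypes, and Ifng reaches the range of Tbx21 in N275D.

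Around the IL-12 receptor, the 8 genes of IL-12 signalling had 5 called higher, 2 called lower and 1 not called, with a median log2 fold change of 0.19. Of all genes tested, 24.7% were called higher and 26.1% lower. Stat4, the transcription factor that carries the IL-12 signal, was at 1091, 1153 and 1007 normalized reads in WT and 1899.8, 1942 and 1955 in N275D, a log2 fold change of 0.84 (SE 0.05, 95% confidence interval 0.73 to 0.94, adjusted p = 1.70e-09) in limma. Gadd45b, which helps sustain p38 signalling in Th1 cells, was the next largest rise, with 1171 ± 56.5 in WT and 1378 ± 50.9 in N275D (log2 fold change 0.24, adjusted p = 0.00101). The kinase gene Jak2 was lower, with 6901 ± 619 in WT and 5234 ± 204 in N275D (log2 fold change -0.40, adjusted p = 1.41e-05), as was Il12rb1.

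For IL-18 signalling, 2 of 11 genes were called higher, 5 lower and 4 were not called, with a median log2 fold change of -0.11. For comparison, 24.7% of all genes tested were called higher and 26.1% lower. Myd88, the adaptor of the receptor, was lower, with 1386 ± 27.9 in WT and 1084 ± 30.6 in N275D (log2 fold change -0.35, adjusted p = 9.78e-06), and so was the kinase gene Irak2, with 1675 ± 107 in WT and 1193 ± 29.8 in N275D (log2 fold change -0.49, adjusted p = 9.23e-07). Tab2 and Traf6, which act after the adaptor, were higher by 0.28 and 0.26 on the log2 scale (adjusted p = 1.90e-05 and 0.000151). With quantile normalization, an alternative chosen after seeing the data, the counts became 4 higher and 4 lower, and without WT replicate 3 they were 3 and 4.

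The receptor for IFN-γ and its signalling gave 4 genes higher, 2 lower and 2 not called of 8, with a median log2 fold change of 0.16. Both receptor chains were higher: Ifngr1, the ligand-binding chain, with 322 ± 36.4 in WT and 442 ± 18.9 in N275D (log2 fold change 0.46, adjusted p = 0.000177), and Ifngr2, with 380.3 ± 11.2 in WT and 516 ± 5.32 in N275D (log2 fold change 0.44, adjusted p = 1.57e-05). Of 20 IFN-γ-induced genes 19 were tested, and 6 were higher, 3 lower and 10 not called, a median of 0.07. For both lists, the shares over all genes tested were 24.7% called higher and 26.1% lower. Cxcl10, a chemokine for CXCR3+ cells, was higher, with 57.6 ± 14.2 in WT and 111 ± 3.09 in N275D (log2 fold change 0.96, adjusted p = 0.000118), and so was the guanylate-binding protein gene Gbp7, with 120.2 ± 16.4 in WT and 188 ± 8.04 in N275D (log2 fold change 0.65, adjusted p = 9.98e-05). Cd274, which encodes PD-L1, was lower, with 1298 ± 57.3 in WT and 1064 ± 51.5 in N275D (log2 fold change -0.29, adjusted p = 0.000241).

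Of 20 Th1 effector and surface genes 18 were tested, with 7 called higher, 5 lower and 6 not called, and a median of 0.12. Over all genes tested, 24.7% were called higher and 26.1% lower. At 2-fold, 3 of the effector and surface genes were higher and 2 lower, against 2.73% and 0.857% of all genes tested. Ccl5, a chemokine of effector T cells, was at 47.4, 52.5 and 71.7 normalized reads in WT and 199, 218 and 189.6 in N275D, a log2 fold change of 1.82 (SE 0.14, 95% confidence interval 1.53 to 2.11, adjusted p = 2.35e-08) in limma. Havcr2, which encodes the inhibitory receptor TIM-3, was also higher, with 8.98 ± 2.56 in WT and 27.6 ± 5.11 in N275D (log2 fold change 1.54, adjusted p = 0.000337). Havcr2 is 1 of the 3 called higher at 2-fold, and its WT mean was below the filter minimum of 10. It therefore passed the filter only through its N275D level. The same holds for Gzma, 1 of the 7 called higher, with means of 8.98 in WT and 16.6 in N275D. The chemokine genes Ccl3 and Ccl4 were lower, with 1357 ± 75.8 in WT and 493 ± 9.25 in N275D (log2 fold change -1.46, adjusted p = 5.35e-12) for Ccl3 and 394 ± 20.8 in WT and 172 ± 6.15 in N275D (log2 fold change -1.19, adjusted p = 2.64e-09) for Ccl4. Cxcr3, a receptor gene that T-bet activates, was not called, with 942 ± 56.2 in WT and 949 ± 33.7 in N275D (log2 fold change 0.01, adjusted p = 0.867).

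**Figure D5:**
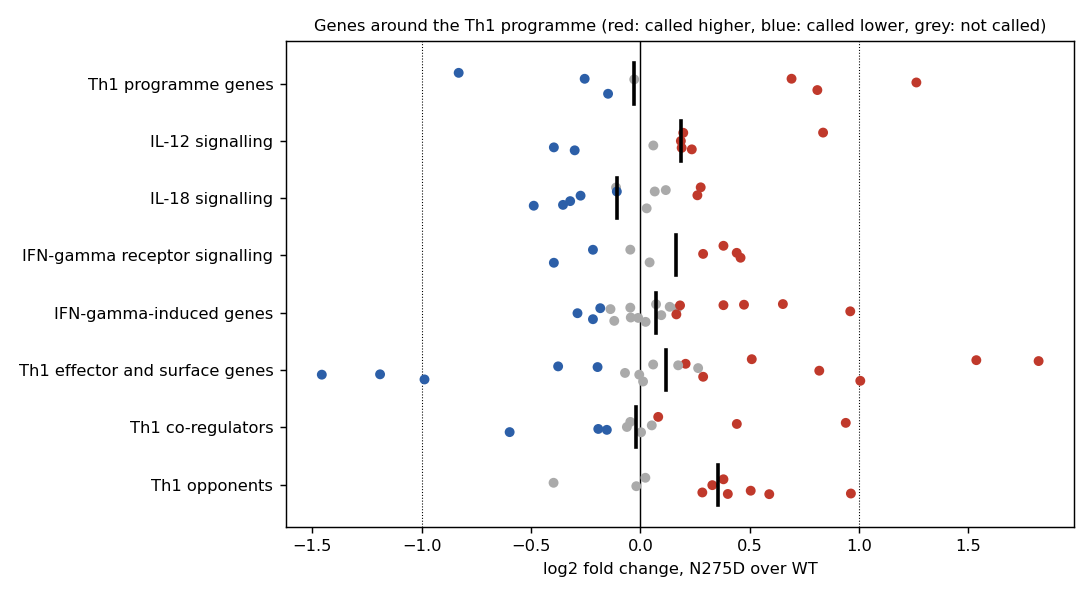
Log2 fold change of N275D against WT (horizontal axis) for each tested gene of the Th1-related lists, 1 point per gene, red where called higher, blue where called lower and grey where not called, with a black bar at the median of each list and dotted lines at 2-fold. Each list holds called genes on both sides of 0 except the Th1 opponents, whose 7 called genes are all higher. Twist1, which restrains Th1 inflammation and was called lower, is plotted with the co-regulators.

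Th1 co-regulators, factors that act with T-bet or modulate the Th1 response in either direction, were split: 3 of 10 were higher, 3 lower and 4 not called, with a median of -0.02. Among all genes tested, 24.7% were called higher and 26.1% lower. Zeb2, a repressor that acts with T-bet in effector T cells, was higher, with 394 ± 8.26 in WT and 758 ± 21.1 in N275D (log2 fold change 0.94, adjusted p = 1.42e-09), as was Prdm1, which encodes Blimp-1, with 37.7 ± 1.54 in WT and 51.8 ± 6.81 in N275D (log2 fold change 0.44, adjusted p = 0.0316). Twist1, which restrains Th1 inflammation, was lower, with 43.3 ± 2.03 in WT and 28.9 ± 7.07 in N275D (log2 fold change -0.60, adjusted p = 0.0203), as was Cbfb, the partner of the RUNX factors, with 2167 ± 190.3 in WT and 1892 ± 51.2 in N275D (log2 fold change -0.19, adjusted p = 0.00785). Quantile normalization, chosen after seeing the data, left 1 called lower, and leaving out WT replicate 3 left 2 called higher and 2 lower.

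Among 10 genes known to oppose Th1 differentiation, 7 were called higher, none lower and 3 were not called, with a median of 0.35. Of all genes tested, 24.7% were called higher and 26.1% lower. The list, like the others, was chosen with earlier results of these data known, so its count is a description and not a test. The count also depends on which genes were listed. Twist1, described above as restraining Th1 inflammation, was called lower but was listed with the co-regulators and is not in it. Socs3, a brake on IL-6 and IL-12 family signalling, was higher, with 1279.6 ± 63.0 in WT and 2494 ± 59.5 in N275D (log2 fold change 0.96, adjusted p = 8.67e-11), and so was Gata3, the Th2 factor, with 129 ± 15.2 in WT and 194 ± 15.9 in N275D (log2 fold change 0.59, adjusted p = 0.000193). Foxp3, the factor of regulatory T cells, overlapped between the genotypes and was not called, with 50.9 ± 9.29 in WT and 38.2 ± 4.998 in N275D (log2 fold change -0.40, adjusted p = 0.0755), although quantile normalization called it lower. Bcl6, the factor of follicular helper T cells, was not called, with 387 ± 22.0 in WT and 393 ± 13.1 in N275D (log2 fold change 0.02, adjusted p = 0.797). Gene totals do not show single bases, so they do not check the knock-in itself.

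The cells carried the markers of Th17 cells, with Il17a at 27166 to 32673 normalized reads in the 6 libraries and Cd4 at 7575 to 9520.1. Cd4 was lower in N275D, with 9143 ± 331 in WT and 7591 ± 26.1 in N275D (log2 fold change -0.27, adjusted p = 1.16e-05 in limma). Of 5 CD4 T genes 3 were called lower and none higher, and of 6 Th17 genes 4 were called higher and 1 lower. Over all genes tested, 24.7% were called higher and 26.1% lower. Ifng and Eomes are also made by CD8 T, NK and γδ T cells, and some markers of those cells moved with them. The 2 CD8 genes summed to 118 to 142 normalized reads in WT and 172 to 179 in N275D. Cd8b1 rose, with 98.9 ± 5.69 in WT and 148 ± 1.19 in N275D (log2 fold change 0.58, adjusted p = 0.000145), while Cd8a did not pass the test, with 32.6 ± 6.70 in WT and 27.6 ± 2.67 in N275D (log2 fold change -0.22, adjusted p = 0.401). Of 6 NK genes, 4 were measured, and their sum was 27.2 to 30.3 in WT and 40.1 to 54.9 in N275D, of which Klrd1 rose, with 20.7 ± 1.30 in WT and 36.9 ± 7.02 in N275D (log2 fold change 0.79, adjusted p = 0.00438). Klrb1c was at 0 in every N275D library and Klra4 at 0 in every WT library. Ncr1, Klra8, Trdc and Trgc1 had no entry under those symbols among the deposited genes, so they could not be examined. Sox13, the 1 γδ T gene measured, rose, with 23.9 ± 6.80 in WT and 36.9 ± 1.70 in N275D (log2 fold change 0.64, adjusted p = 0.0216). The 5 B cell genes summed to 150 to 160 in WT and 214 to 273 in N275D, and 3 of the 4 tested were higher. The 4 myeloid genes summed to 79.7 to 92.3 in WT and 80.0 to 102 in N275D, and of the 2 tested, Cd68 was not called while Adgre1, the macrophage marker F4/80, fell, with 22.6 ± 3.22 in WT and 6.64 ± 3.05 in N275D (log2 fold change -1.70, adjusted p = 0.000512). Adgre1 passed the filter only through its WT level, since its N275D mean was below the minimum of 10. The part of these other cell types in the results was not tested.

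The genes whose log2 values followed Tbx21 most closely over the 6 libraries were Zfpm1, Ier2 and Ddx27, with Pearson r = 0.999 for each. For Ifng they were Adipor1 (r = 0.998), Nxpe3 (r = 0.997) and B4galt1 (r = 0.994). The 6 points share the genotype difference, and 1139 genes had r over 0.95 with Tbx21 and 517 with Ifng, so these are descriptions only.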

How the data were processed

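Reads were deposited as a table of normalized reads per gene, treated here as a signal, since the authors scaled each library by 1 factor. Per the labels and the study's methods, RNA was poly-A selected and sequenced with a strand-specific kit, and the authors used STAR on mm10 after trimming, featureCounts for gene totals and DESeq2 for scaling and testing; versions were not given in the sources used here. Every deposited value was a whole multiple of 1 step per library within 1e-06. The deposited table also holds group means, log2 fold changes and p-values or q-values that the authors made in their own DESeq2 comparison of the genotypes, and none of these was used here. All 6 library columns were used.

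Here log2(normalized reads + 1) was tested with limma 3.58.1 in R 4.3.3 (trended prior, no covariates) over genes with a mean of at least 10, with Benjamini-Hochberg adjustment over all of them, checked on simulated data. The 3 libraries of each genotype cannot give an exact permutation p below 0.1. Symbols were matched by gene number to RefSeq (16135 of 16244). The 7 genes are all named. Of each list, the 2 largest called rises and falls are named, with those a sentence needs; a few list genes that the rule would name are not reported here, and for Tbx21 and Ifng the 3 best-correlated genes. The genes and lists were chosen with earlier results of these data known. Replicate numbers were not used to pair libraries. Alternatives covered the pseudocount, the filter, the scaling, the prior, the replicate block and leaving out each library.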

Additional observations from a re-analysis of the deposited data

How the results depend on the processing

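Tbx21, Eomes, Ifng, Il12rb2 and Il18r1 kept their direction and their limma call under every alternative in which they were tested, with log2 fold changes of -0.88 to -0.77 for Tbx21, 0.52 to 0.79 for Eomes, 0.68 to 0.89 for Ifng, 1.25 to 1.31 for Il12rb2 and -0.29 to -0.21 for Il18r1. With a minimum mean of 100, Eomes and Hlx were not tested. Il18rap kept its direction but lost its call without a trended prior (-0.15, adjusted p = 0.0650), with a replicate block (-0.15, adjusted p = 0.0593) and in 4 of the 6 fits that left out 1 library, over which it ranged from -0.20 to -0.12. The cause was not tested. Hlx was called in no setting, and its log2 fold change turned positive without WT replicate 1 (0.06) or N275D replicate 2 (0.09). The replicate numbers did not pair the libraries (r of same-numbered deviations -0.08 to 0.04), and the block changed no other call among the 7 genes. The number of genes called at 2-fold, 427, became 259 with a pseudocount of 10, 703 with all genes above 0 and 162 with a minimum mean of 100, and was 424 to 450 when 1 library was left out. The planned count tests, edgeR and DESeq2 on recovered reads, were not run, because the deposited values were treated as a normalized signal and not as counts. At 17659035 to 18510878 reads per library, counting error limits Eomes and Hlx most.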
